A study of Mus musculus with 6 samples.

Results

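The genes described here encode carriers of organic ions and ATP-binding cassette (ABC) proteins, the proteins by which a hepatocyte takes up, stores and secretes drugs, bile pigments, lipids and metabolites. They are the genes of the deposited table whose symbol begins with Slco, Slc22a or Abca to Abcg followed by a digit. Slco1b2, Abcb11, Abcg5, Abcg8 and Abca1 were left out, so the main bile salt and sterol exporters of the canaliculus are not among them. Of the 25718 genes in the table, 71 met this rule: 10 SLCO, 20 SLC22, 11 ABCA, 8 ABCB, 10 ABCC, 4 ABCD, 1 ABCE, 3 ABCF and 4 ABCG genes.

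The RNA came from primary hepatocytes of WT and S100a16KO+/- mice that had all been fed alcohol, and 3 libraries were made for each genotype. S100a16KO+/- mice carry 1 deleted S100a16 allele in all tissues, made with EIIa-Cre on a C57BL/6 background, since mice lacking both alleles die. The labels call this genotype S100A16 knockdown. All animals were males of 8 to 10 weeks that received a control liquid diet for 5 days, a diet with 5% ethanol for 10 days and, 9 h before collection, a gavage of 5 g/kg ethanol. Hepatocytes were released with collagenase and enriched on Percoll, and no pair-fed animals are part of these samples. The sources give n = 3 per group and do not say in other words that each library is 1 mouse. The p-values therefore measure the spread between these libraries, which can be smaller than the spread between mice.

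Organic ion carriers of the SLCO and SLC22 families bring anions, cations, zwitterions and steroid conjugates into the hepatocyte from the sinusoidal blood, mostly without using ATP. Most ABC proteins use ATP to move a substrate out of the cytoplasm. Full-length ABCB proteins, most ABCC proteins and ABCG proteins export drugs, conjugates and lipids, in part into bile or back into blood. ABCA proteins move lipids, and short ABCB and ABCD proteins pair up in the membranes of mitochondria, lysosomes and peroxisomes. ABCE1 and the ABCF proteins have the ATPase domains but no membrane domain, and act on ribosomes.

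The estimated counts of a library added up to between 67658095 and 71807834. S100a16 itself had 1001, 1056 and 1107 counts in WT and 433, 390 and 366 counts in S100a16KO+/- libraries, a log2 fold change of -1.40 (SE 0.11, adjusted p = 4.14e-07, edgeR's quasi-likelihood test). WT replicate 1 and S100a16KO+/- replicate 2 stood apart from the other libraries on the second principal component of all tested genes, with scores of 10.6 and 16.9 against -8.83 to -4.32, and had the lowest scaling factors (0.951 and 0.948, against 1.01 to 1.04). Levels are given as the deposited FPKM, a value per length of transcript, which is not corrected by these factors. All log2 fold changes are S100a16KO+/- minus WT from edgeR's fit of the counts, which is corrected, with an adjusted p over all 15957 tested genes. With both of these libraries left out, a setting chosen after seeing the data, 16 of the 17 members that passed the test at an adjusted p under 0.05 still did, all in the same direction.

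Most transporter genes with a high level differed little between the genotypes. The members that passed the test went in both directions, and at a mean FPKM of at least 1 their share was near that of all tested genes. Of the 71 members, 57 had enough counts to be tested, and 17 of these (29.8%) passed at an adjusted p under 0.05, against 22.8% of all tested genes. Of these, 9 were higher in S100a16KO+/- hepatocytes, where 11.6% of all tested genes were, and 8 were lower, where 11.2% were. With 1 library left out, 6 to 9 were higher and 5 to 8 lower, with 5 lower without WT replicate 2, and 12 of the 17 still passed without WT replicate 2, WT replicate 3 or S100a16KO+/- replicate 3. The median log2 fold change of the 57 was 0.04, and that of all tested genes 0.01. The 3 FPKM values of one genotype all lay above those of the other for 22 of the 57, against 34.5% of all tested genes. Among the 38 members with a mean FPKM of at least 1, 13 passed the test (34.2%), against 32.7% of all tested genes at such a level. Among the 13 members with a mean FPKM of at least 10, 3 passed (23.1%), against 46.2% of all tested genes at that level. Of the same 13 members, 10 had a log2 fold change within 0.1 of 0, against 30.3% of all tested genes at that level. Each library is RNA of many cells, in which fewer cells of a type and less RNA per cell cannot be told apart.

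The levels spanned a wide range. The FPKM values of all members added up to between 599.8 and 681.7 in a library, and 12 genes held 77.8% of this sum. Among the 12 were Slc22a18, Abcc2, Abcc3, Abcd3, Abca6, Abcc6, Slco1a4, Abcb4, Slco2b1, Slc22a30 and Abca8a, with mean FPKM from 62.5 down to 14.2. In the plot of levels, Slc22a18 and Abcc2 occupied overlapping ranges, as did Slco1a4, Abcb4 and Slco2b1, so their order within these groups is not larger than the spread between libraries. Summed by family, the ABCF genes had 20.8 ± 0.861 in WT and 23.8 ± 1.18 in S100a16KO+/- hepatocytes (SD, n = 3 each), without overlap. In 6 further families the sums overlapped: SLC22 had 234.6 ± 10.7 and 226.3 ± 4.72, ABCC 147.9 ± 8.95 and 148.7 ± 4.89, ABCA 64.2 ± 3.79 and 71.4 ± 5.82, SLCO 53.3 ± 3.46 and 52.9 ± 2.94, ABCB 52.8 ± 5.03 and 50.1 ± 2.54, and ABCG 7.51 ± 0.270 and 7.14 ± 0.838 FPKM.

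**Figure D1:**
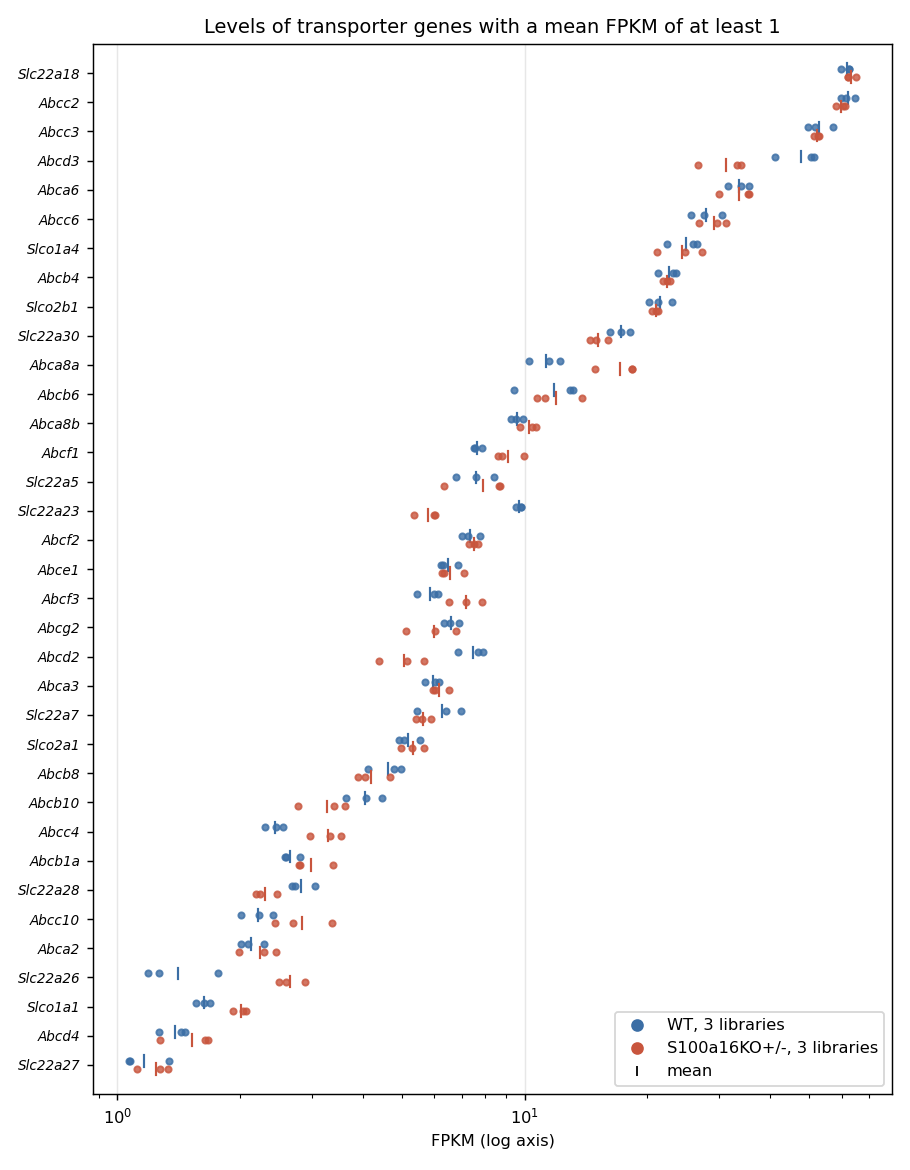
FPKM (log axis) of 35 of the 38 members with a mean of at least 1, ordered by level. Each point is a library, 3 per genotype, and the short vertical bars are the means. The points of the genotypes lie on top of each other for most genes at the top, such as Abcc2, and apart for Abcd3, Abca8a and Slc22a23.

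**Figure D2:**
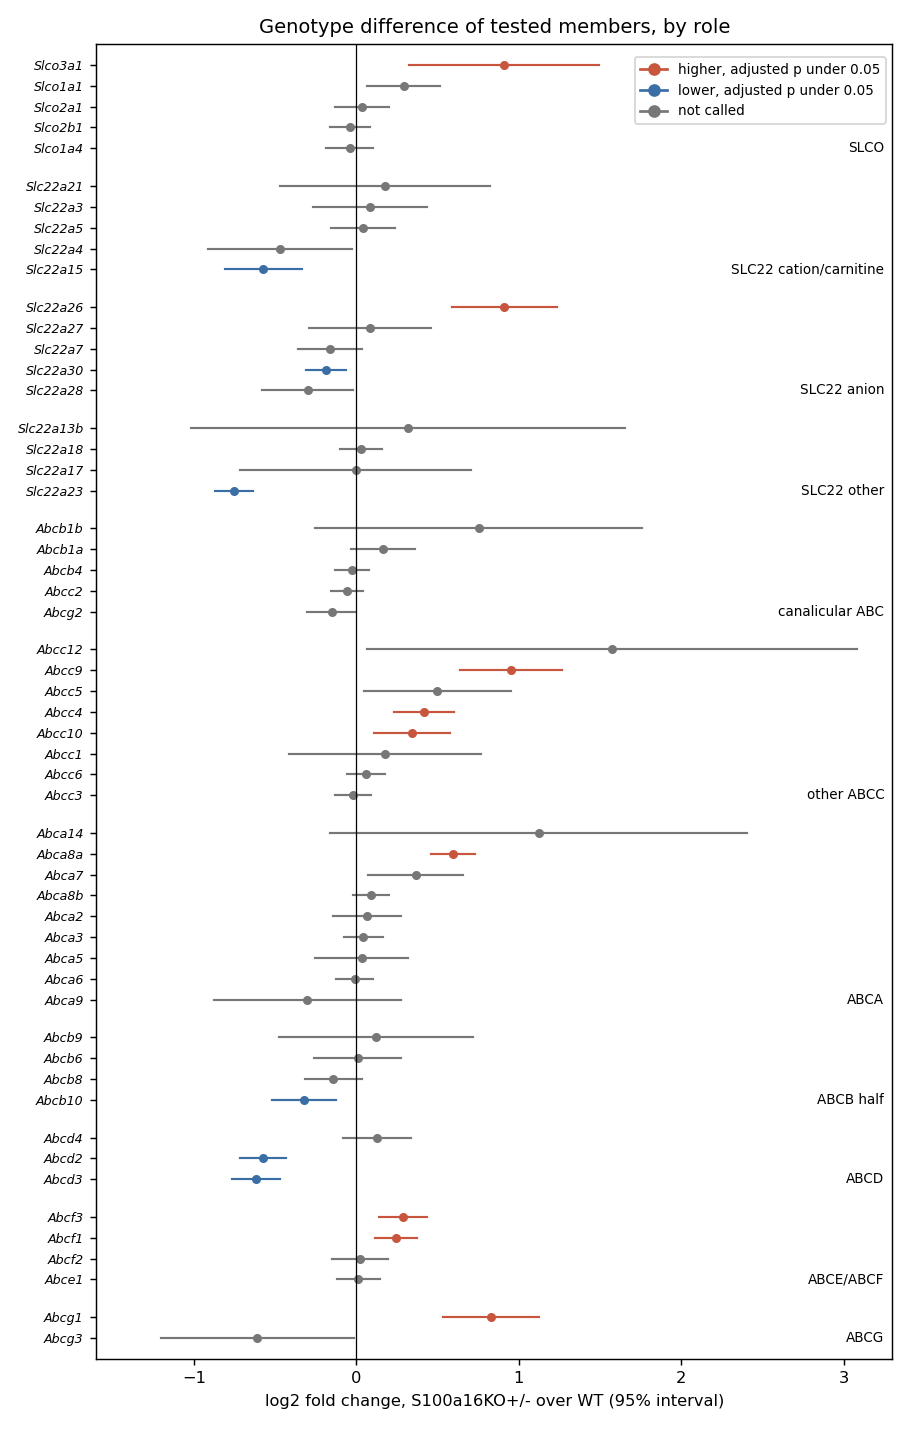
Log2 fold change of 54 of the 57 tested members (S100a16KO+/- over WT) with 95% intervals from edgeR's fit, grouped by role. Colour marks the 9 genes drawn that were higher and the 6 that were lower at an adjusted p under 0.05. Intervals are narrow for abundant genes and wide for those with few counts, such as Abcc12. Slc22a13b, which was in no role list, is drawn with the other SLC22 genes, and Abcc9 with the other ABCC genes.

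SLCO genes encode the organic anion transporting polypeptides, and none of the abundant members passed the test. Slco1a4, whose product takes up cardiac glycosides and bile salts, had 22.3, 25.9 and 26.5 FPKM in WT and 27.3, 21.1 and 24.7 in S100a16KO+/- libraries. Its log2 fold change was -0.04 (95% interval -0.19 to 0.10). Slco2b1, which carries steroid sulfates, had 20.2 to 22.9 FPKM in WT and 20.5 to 21.3 in S100a16KO+/- hepatocytes, a log2 fold change of -0.04 (95% interval -0.16 to 0.08). In both genes the genotypes overlapped, and the interval reached down to -12.1% for Slco1a4 and to -10.7% for Slco2b1. Slco2a1, the prostaglandin transporter, had a log2 fold change of 0.04 (95% interval -0.13 to 0.20). Slco1a1, a carrier of steroid conjugates known for high expression in male liver, was at 1.69, 1.64 and 1.56 FPKM in WT and 1.92, 2.06 and 2.03 in S100a16KO+/- hepatocytes. Its values did not overlap, but its log2 fold change of 0.29 missed the threshold (SE 0.10, adjusted p = 0.0608). Slco3a1 was the 1 SLCO gene of 5 tested that passed (20%, against 22.8% of all tested genes), at a low level.

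Among the carriers of organic cations and carnitine, 1 gene of 6 tested, Slc22a15, passed the test (16.7%), against 22.8% of all tested genes. Slc22a5, the carnitine importer OCTN2, had 7.60 ± 0.796 FPKM in WT and 7.88 ± 1.34 in S100a16KO+/- hepatocytes (SD, n = 3 each), which is a log2 fold change of 0.04 (95% interval -0.16 to 0.24). It lies on chromosome 11 in a row with Slc22a21 and Slc22a4, which encode related carnitine and ergothioneine carriers. Slc22a4 had a log2 fold change of -0.47 (SE 0.21) and did not pass (adjusted p = 0.127), nor did Slc22a21 (0.18, SE 0.30) or Slc22a3 (0.08, SE 0.16). Between 30.8% and 37.8% of the 31-base words in the transcripts of Slc22a5 and Slc22a21 also occur in another gene, so reads could be split between them. Slc22a15, a carrier of zwitterions, had 0.802, 0.907 and 0.828 FPKM in WT and 0.674, 0.475 and 0.571 in S100a16KO+/- hepatocytes, a log2 fold change of -0.57 (SE 0.11, adjusted p = 0.00175).

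The largest fall among the tested members was that of Slc22a23 (ENSMUSG00000038267, chromosome 13 from 34179158 to 34345182, minus strand), a member of the SLC22 family whose substrates are not settled. It had 9.501, 9.767 and 9.81 FPKM in WT and 5.98, 5.34 and 6.03 in S100a16KO+/- libraries. Every S100a16KO+/- library lay far below every WT library. Other gene models overlap it on both strands, and it shares no 31-base word with another gene. The log2 fold change was -0.75 (SE 0.05, adjusted p = 1.87e-07), which is -40.7% with a 95% interval from -45.4% to -35.6%. Slc22a18, a carrier gene in the imprinted cluster of chromosome 7, was among the most abundant members and had 59.9 to 62.7 FPKM in WT and 62.2 to 65.1 in S100a16KO+/- hepatocytes. Its log2 fold change was 0.03 (95% interval -0.10 to 0.16). The log2 ratio of Slc22a23 to Slc22a18 was -2.67 ± 0.0129 in WT and -3.45 ± 0.135 in S100a16KO+/- libraries (SD, n = 3 each). The difference of -0.78 gave an exact two-sided permutation p of 0.1, the smallest that 3 libraries against 3 allow. This ratio and most of those below set a member that passed the test over one that did not, in the same libraries. They are therefore no separate support for the fold changes. Slc22a17, the lipocalin-2 receptor, had 0.144 ± 0.0162 FPKM in WT and 0.146 ± 0.0237 in S100a16KO+/- hepatocytes.

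The window before the start site of Slc22a23 is shown because it is the member with the smallest adjusted p. The sequence is 250 bases from RefSeq (GRCm38.p6), written from 5′ to 3′ on the gene's own strand, and capitals mark each GC box, GGGCGG or its reverse complement CCGCCC.
Slc22a23 chr13:34345219-34345468, minus strand: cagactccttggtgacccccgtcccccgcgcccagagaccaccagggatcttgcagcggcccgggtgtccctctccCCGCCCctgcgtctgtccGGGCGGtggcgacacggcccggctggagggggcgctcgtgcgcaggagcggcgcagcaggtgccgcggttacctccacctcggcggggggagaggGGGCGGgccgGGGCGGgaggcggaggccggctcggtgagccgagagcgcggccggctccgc
It holds 4 GC boxes and is 78.4% G and C, against a median of 54.4% over the 53 members with such a window. GC boxes occur in 21 of these 53 windows (39.6%) and in 32.7% of all 32817 windows of the same length. Matches are letters found in the sequence, and no binding was measured here.

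Among the SLC22 organic anion carriers, Slc22a26 was higher and its neighbour Slc22a30 lower in S100a16KO+/- hepatocytes. Slc22a26, Slc22a27, Slc22a28, Slc22a29 and Slc22a30 lie in this order on the minus strand of chromosome 19 between 7781041 and 8405111. They belong to a rodent group of carriers of steroid sulfates and other organic anions, some of which are known to differ between male and female liver. Slc22a26 (ENSMUSG00000053303) had 1.19, 1.26 and 1.77 FPKM in WT and 2.89, 2.60 and 2.49 in S100a16KO+/- libraries. Every S100a16KO+/- library exceeded every WT library, and the log2 fold change of 0.91 (SE 0.15, adjusted p = 4.75e-04) was the largest rise among the members with a mean FPKM of at least 1. It corresponds to 88.15% more RNA, with a 95% interval from 50.3% to 135.5%. Slc22a30, the abundant gene of the row, had 16.2, 18.2 and 17.2 FPKM in WT and 16.04, 14.5 and 15.0 in S100a16KO+/- hepatocytes. It fell by 0.19 on the log2 scale (SE 0.06, adjusted p = 0.0280), and the lowest WT and the highest S100a16KO+/- value lay close together. This call was lost without any 1 WT library or without S100a16KO+/- replicate 3, where the adjusted p was 0.120 (edgeR). Slc22a28 had 2.68, 3.06 and 2.73 FPKM in WT and 2.47, 2.24 and 2.20 in S100a16KO+/- hepatocytes, also without overlap, and its log2 fold change of -0.30 (SE 0.13) did not pass (adjusted p = 0.119). Slc22a27 overlapped between the genotypes, with a log2 fold change of 0.09 (95% interval -0.29 to 0.46).

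Expressed as ratios within each library, the log2 ratio of Slc22a26 to Slc22a30 was -3.63 ± 0.300 in WT and -2.51 ± 0.0641 in S100a16KO+/- libraries (SD, n = 3 each). It moved by 1.12 with no overlap (exact permutation p = 0.1, two-sided). For Slc22a28 over Slc22a30 it moved by -0.11, from -2.61 ± 0.0483 to -2.72 ± 0.0429 (SD, n = 3 each, exact permutation p = 0.1). Slc22a28 shared 68.2% of its 31-base words with another gene, most often with Slc22a30, and Slc22a30 shared 42.9%, so these genes could exchange reads in the counting. For Slc22a27 the share was 46.9% and for Slc22a26 11.9%. Slc22a7, the organic anion transporter OAT2, lies elsewhere, on chromosome 17. It had 6.28 ± 0.787 FPKM in WT and 5.63 ± 0.238 in S100a16KO+/- hepatocytes (SD, n = 3 each), and its log2 fold change of -0.16 did not pass (95% interval -0.36 to 0.04).

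The windows upstream of these neighbours are shown because genes of near-identical upstream sequence and a gene of unlike sequence can be compared in 1 row. Each is from RefSeq (GRCm38.p6), written from 5′ to 3′ on the minus strand up to the base before the gene, and capitals mark a CCAAT box (CCAAT or its reverse complement ATTGG).
Slc22a26 chr19:7802668-7802917, minus strand: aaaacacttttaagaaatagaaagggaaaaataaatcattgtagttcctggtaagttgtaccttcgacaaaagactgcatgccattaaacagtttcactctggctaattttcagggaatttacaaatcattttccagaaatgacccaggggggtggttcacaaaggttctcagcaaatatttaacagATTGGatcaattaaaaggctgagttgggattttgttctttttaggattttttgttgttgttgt
Slc22a28 chr19:8131983-8132232, minus strand: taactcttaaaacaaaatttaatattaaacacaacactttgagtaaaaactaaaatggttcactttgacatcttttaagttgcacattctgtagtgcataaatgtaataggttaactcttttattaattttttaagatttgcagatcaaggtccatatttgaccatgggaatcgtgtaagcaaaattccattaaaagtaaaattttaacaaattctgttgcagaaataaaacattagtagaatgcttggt
Slc22a30 chr19:8405112-8405355, minus strand: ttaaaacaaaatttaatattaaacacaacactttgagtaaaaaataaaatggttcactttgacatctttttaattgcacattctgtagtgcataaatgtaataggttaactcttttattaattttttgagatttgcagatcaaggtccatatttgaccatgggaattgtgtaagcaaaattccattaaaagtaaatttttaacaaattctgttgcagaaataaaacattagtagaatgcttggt
The windows of Slc22a28 and Slc22a30 were identical at 95.2% of aligned positions, whereas that of Slc22a26 was identical to the window of Slc22a30 at 51.1%. The single CCAAT box of the 3 windows is that of Slc22a26. CCAAT boxes occur in 16 of the 53 windows of members (30.2%) and in 33.8% of all windows. Of the other motifs searched on both strands (E-box CACGTG, GC box GGGCGG, the nuclear receptor core AGGTCA and the TATA box TATAAA), none was found in these 3 windows.

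**Figure D3:**
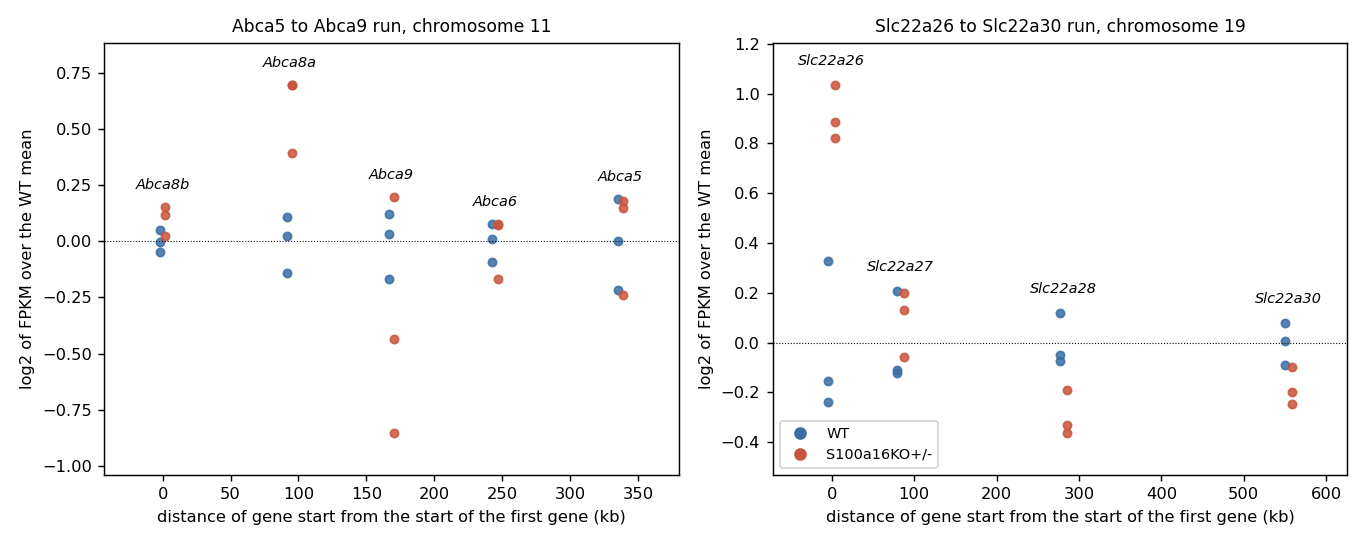
Log2 of FPKM over the WT mean for the genes of a row on chromosome 11 (left) and a row on chromosome 19 (right), against the distance in kb between the lowest coordinates of the genes. Each point is a library. Abca8a (log2 fold change 0.59) and Slc22a26 (0.91) are the genes of their rows whose S100a16KO+/- points all lie well above the WT points.

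The exporters of the canalicular membrane, which pump drugs, conjugated bilirubin and phosphatidylcholine into bile, passed the test in 0 of 5 cases. Of all tested genes 22.8% passed, and of those with a mean FPKM of at least 1, 32.7% did. Abcc2, the exporter of bilirubin glucuronides and glutathione conjugates (MRP2), had 59.8, 64.6 and 61.6 FPKM in WT and 60.5, 58.2 and 60.9 in S100a16KO+/- libraries. Its log2 fold change was -0.06, and the 95% interval from -0.16 to 0.04 corresponds to -10.2% to 2.89%. Abcb4, the phosphatidylcholine floppase whose human counterpart is called MDR3, had 21.3, 23.5 and 23.1 FPKM in WT and 22.3, 21.9 and 22.7 in S100a16KO+/- hepatocytes, a log2 fold change of -0.03 (95% interval -0.13 to 0.08). For both of these the genotypes overlapped. Abcg2, the breast cancer resistance protein, had 6.59 ± 0.270 and 5.97 ± 0.836 FPKM (SD, n = 3 each) and a log2 fold change of -0.15 (95% interval -0.31 to 0.00). Abcb1a, a P-glycoprotein gene, had a log2 fold change of 0.16 (95% interval -0.04 to 0.36). Its neighbour Abcb1b, the other P-glycoprotein gene, had at most 79 counts in a library and a wide interval from -0.25 to 1.76. The lowest adjusted p among the 5 was 0.151, that of Abcg2 (edgeR).

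Among the 7 tested ABCC exporters of the other membranes, Abcc4 and Abcc10 passed the test (28.6%, against 22.8% of all tested genes), both higher. Abcc3, the basolateral exporter of glucuronides (MRP3), had 49.6, 57.01 and 51.5 FPKM in WT and 52.9, 51.3 and 52.4 in S100a16KO+/- hepatocytes, a log2 fold change of -0.02 (95% interval -0.13 to 0.09). Abcc6, whose loss causes ectopic mineralisation, had 27.8 ± 2.51 and 29.2 ± 2.27 FPKM (SD, n = 3 each), which is a log2 fold change of 0.06 (95% interval -0.06 to 0.18). Neither of these genes passed the test. Abcc4, the basolateral exporter of cyclic nucleotides and bile salts (MRP4, ENSMUSG00000032849), did: it had 2.55, 2.46 and 2.31 FPKM in WT and 3.54, 2.98 and 3.33 in S100a16KO+/- libraries. The log2 fold change was 0.42 (SE 0.09, adjusted p = 0.00265), or 33.5% more, with a 95% interval from 17.5% to 51.6%. The log2 ratio of Abcc4 to Abcc3 rose by 0.44 with no overlap (exact two-sided permutation p = 0.1). Abcc10, the drug exporter MRP7, had 2.23, 2.41 and 2.01 FPKM in WT and 2.44, 2.69 and 3.37 in S100a16KO+/- hepatocytes. The lowest S100a16KO+/- value was just above the highest WT value, and the log2 fold change of 0.34 passed narrowly (SE 0.11, adjusted p = 0.0368). This call was lost without any 1 of WT replicates 1, 2 and 3 or S100a16KO+/- replicates 2 and 3, and the largest adjusted p was then 0.192, without S100a16KO+/- replicate 3. Abcc1 and Abcc5, exporters of glutathione conjugates and of cyclic nucleotides, were low, at 0.0646 and 0.295 FPKM in WT, and did not pass, with log2 fold changes of 0.18 (SE 0.28) and 0.50 (SE 0.21, adjusted p = 0.109).

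ABCA proteins move phospholipids and sterols across membranes, and 1 of 9 tested ABCA genes passed (11.1%), against 22.8% of all tested genes. Abca8a (ENSMUSG00000041828, chromosome 11 from 110025634 to 110095978, minus strand), whose family is linked to sterol efflux, had 10.2, 12.2 and 11.5 FPKM in WT and 18.3, 14.9 and 18.4 in S100a16KO+/- libraries. Every S100a16KO+/- library lay above every WT library. The log2 fold change was 0.59 (SE 0.06, adjusted p = 8.57e-06), or 51.0% more RNA with a 95% interval from 37.5% to 65.8%. Its neighbours in the row Abca8b, Abca8a, Abca9, Abca6 and Abca5 did not pass. Abca8b, its closest relative, had 9.26, 9.91 and 9.54 FPKM in WT and 10.4, 9.73 and 10.7 in S100a16KO+/- hepatocytes, a log2 fold change of 0.09 (95% interval -0.02 to 0.20). Abca6, the most abundant gene of the row, had 31.5, 35.5 and 33.9 FPKM in WT and 35.4, 30.0 and 35.5 in S100a16KO+/- hepatocytes, a log2 fold change of -0.01 (95% interval -0.12 to 0.10). Within each library, the log2 ratio of Abca8a to Abca8b moved by 0.50 and that of Abca8a to Abca6 by 0.60, both without overlap (exact two-sided permutation p = 0.1 each). Abca8a and Abca8b shared 3.11% and 3.23% of their 31-base words with other genes, so few reads could fit more than 1 of them. Abca5 and Abca9 had log2 fold changes of 0.03 (SE 0.13) and -0.30 (SE 0.27). Elsewhere in the genome, Abca3, a lipid carrier of lamellar bodies, had 0.04 (95% interval -0.08 to 0.16) and Abca2 0.07 (95% interval -0.14 to 0.28), both log2 fold changes. Abca7, a phospholipid transporter, was at 0.653, 0.916 and 0.928 FPKM in WT and 0.991, 1.07 and 1.16 in S100a16KO+/- hepatocytes, and its log2 fold change of 0.37 did not pass (adjusted p = 0.0686).

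The upstream windows of Abca8a and Abca8b are shown because these relatives lie side by side and their ratio shifted between the genotypes. Both are from RefSeq (GRCm38.p6), 5′ to 3′ on the minus strand, ending at the base before the gene, and capitals mark an E-box (CACGTG) in the former and a GC box (CCGCCC, the reverse complement of GGGCGG) in the latter.
Abca8a chr11:110095979-110096187, minus strand: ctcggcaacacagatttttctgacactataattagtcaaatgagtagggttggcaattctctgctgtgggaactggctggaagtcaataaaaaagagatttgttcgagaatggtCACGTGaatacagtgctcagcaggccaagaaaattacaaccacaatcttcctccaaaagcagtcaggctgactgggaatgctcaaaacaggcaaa
Abca8b chr11:109995846-109996095, minus strand: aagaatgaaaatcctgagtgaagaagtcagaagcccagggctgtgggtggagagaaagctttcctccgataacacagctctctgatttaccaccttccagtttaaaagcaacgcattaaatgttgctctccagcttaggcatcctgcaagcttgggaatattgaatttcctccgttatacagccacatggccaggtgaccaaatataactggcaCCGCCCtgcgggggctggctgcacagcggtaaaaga
The windows were identical at 44.1% of aligned positions. An E-box occurs in the windows of 4 of the 53 members (Abca8a, Abcc4, Abcf1 and Slc22a4, 7.55%) and in 6.02% of all windows. Of these 4 genes, Abca8a, Abcc4 and Abcf1 were higher in S100a16KO+/- hepatocytes, where 11.6% of all tested genes were, and Slc22a4 did not pass the test. With 4 genes and several motifs searched, this is a description of these windows, and a link between motif and level was not tested.

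Among the short ABCB transporters of mitochondria and lysosomes, Abcb10 was lower in S100a16KO+/- hepatocytes, by a margin that depended on single libraries. Abcb10, a mitochondrial inner membrane protein linked to haem synthesis, had 3.64, 4.47 and 4.08 FPKM in WT and 3.41, 2.77 and 3.63 in S100a16KO+/- hepatocytes. Its highest S100a16KO+/- value and its lowest WT value nearly touched, and the log2 fold change was -0.32 (SE 0.09, adjusted p = 0.0196). Without WT replicate 2 the adjusted p was 0.0904, and the call was also lost without WT replicate 3 or without S100a16KO+/- replicate 2. The mitochondrial Abcb8 (-0.14, 95% interval -0.32 to 0.03), the porphyrin carrier Abcb6 (0.01, 95% interval -0.26 to 0.28) and the lysosomal peptide carrier Abcb9 (0.12, 95% interval -0.48 to 0.72) did not pass, each given as log2 fold change. Abcb6 shares 52.1% of its words with an overlapping gene model, so its own reads are uncertain. Because Abcb10 is used in developing red cells, the haemoglobin and other erythroid genes are given beside it: all 5 measured of 6 listed were lower, and their summed level was 260.6 to 287.9 FPKM in WT and 25.2 to 26.2 in S100a16KO+/- libraries. Of all tested genes, 11.2% were lower. The part of the erythroid genes in the result was not tested.

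Abcd3 and Abcd2, whose products carry fatty acyl-CoA into peroxisomes, were lower in S100a16KO+/- hepatocytes, and the lysosomal Abcd4 did not pass the test. Abcd3 (PMP70, ENSMUSG00000028127, chromosome 3 from 121758774 to 121815302, minus strand), which carries branched-chain and bile acid precursors, was among the most abundant members. It had 41.2, 50.3 and 51.2 FPKM in WT and 33.2, 26.6 and 33.9 in S100a16KO+/- libraries, with no overlap. The log2 fold change was -0.62 (SE 0.07, adjusted p = 1.62e-05), which is -34.8% with a 95% interval from -41.1% to -27.7%. Abcd2 (ALDRP), a carrier of very long-chain and polyunsaturated acyl-CoA, had 6.85, 7.67 and 7.91 FPKM in WT and 5.13, 4.38 and 5.66 in S100a16KO+/- hepatocytes, a log2 fold change of -0.57 (SE 0.07, adjusted p = 2.10e-05). Abcd4, which works in the lysosomal handling of cobalamin, had 1.27, 1.46 and 1.43 FPKM in WT and 1.67, 1.27 and 1.64 in S100a16KO+/- hepatocytes, overlapping, with a log2 fold change of 0.13 (95% interval -0.08 to 0.34).

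The log2 ratio of Abcd3 to Abcd4 was 5.10 ± 0.0678 in WT and 4.36 ± 0.0358 in S100a16KO+/- libraries (SD, n = 3 each), a shift of -0.74. For Abcd2 over Abcd4 the shift was -0.70, and neither ratio overlapped between the genotypes (exact two-sided permutation p = 0.1 each). Abcd4 did not pass the test in the same libraries, so both ratios restate the fold changes. In Abcd3, 0.182% of the 31-base words occur in another gene, although other gene models overlap it on the same strand, so some reads could be split. The window upstream of Abcd3 is shown because it is the abundant member that fell most. It is from RefSeq (GRCm38.p6), 5′ to 3′ on the minus strand, and stands in lower case throughout because none of the motifs searched was found in it.
Abcd3 chr3:121815303-121815552, minus strand: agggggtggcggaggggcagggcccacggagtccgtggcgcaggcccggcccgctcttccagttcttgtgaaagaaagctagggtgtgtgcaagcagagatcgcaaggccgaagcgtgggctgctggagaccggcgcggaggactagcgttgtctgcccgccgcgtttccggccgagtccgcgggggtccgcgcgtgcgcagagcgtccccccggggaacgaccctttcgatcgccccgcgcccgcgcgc
It is 72% G and C. The absence of these letters in 250 bases says nothing about which factors act on the gene.

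The other genes of peroxisomal oxidation and import were read from a list outside the members. Of 21 genes, all tested, 14 were lower and 1 was higher in S100a16KO+/- hepatocytes, and their median log2 fold change was -0.31. Of all tested genes, 11.2% were lower and 11.6% higher. Of those with a mean FPKM of at least 1, 17.2% were lower and 15.5% higher. Ehhadh, the bifunctional enzyme of the pathway, went from 116.7 ± 5.03 to 62.9 ± 4.49 FPKM (SD, n = 3 each), which is a log2 fold change of -0.90 (adjusted p = 7.29e-09). Acaa1b, a peroxisomal thiolase with a near copy in Acaa1a, fell by 0.92 on the log2 scale (adjusted p = 0.00224), the branched-chain oxidase gene Acox2 by 0.63 (adjusted p = 4.07e-06) and Hsd17b4 by 0.60 (adjusted p = 9.58e-07). The acyl-CoA synthetase gene Acsl1 fell by 0.46 on the same scale (adjusted p = 1.68e-05). Pex6, part of the receptor recycling complex, was the 1 gene that rose (0.31, adjusted p = 0.0333), with overlapping FPKM. Ppara, the nuclear receptor that drives many of these genes, did not pass, with -0.16 on the log2 scale (adjusted p = 0.124, edgeR).

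**Figure D4:**
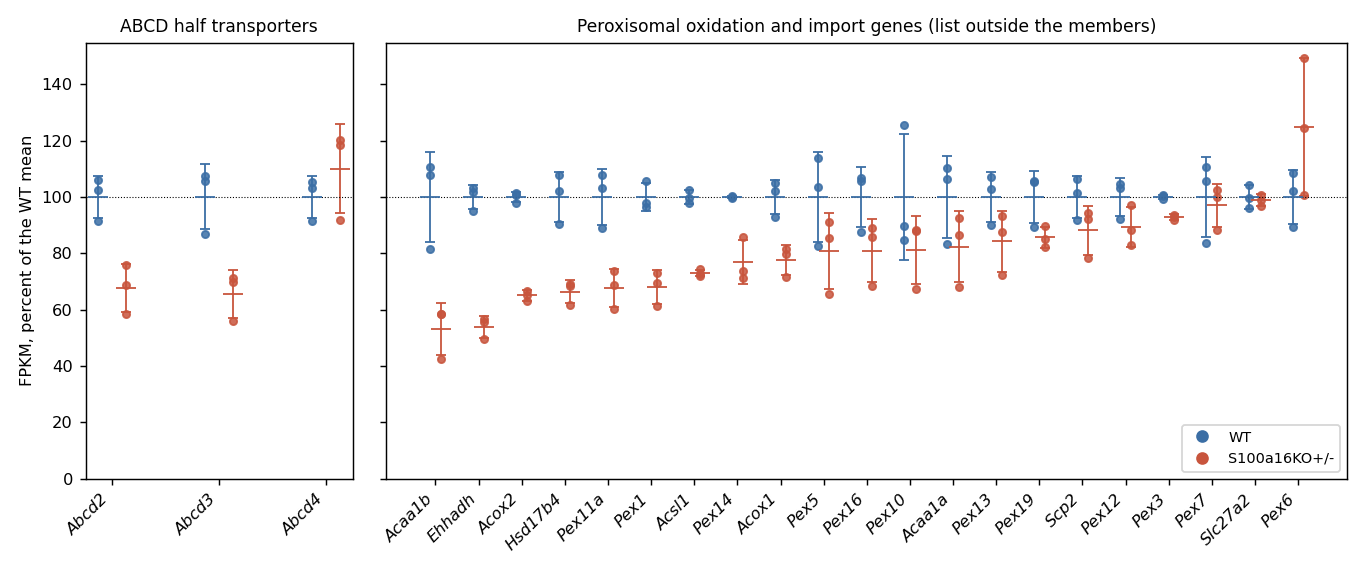
FPKM as percent of the WT mean for 3 ABCD genes (left) and the 21 listed genes of peroxisomal oxidation and import (right), ordered by log2 fold change. Points are libraries, horizontal bars are means and vertical bars are SD (n = 3). Abcd2 and Abcd3 lie below all WT points, Abcd4 straddles them, and most listed genes lie below 100, with Pex6 above.

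The soluble ABC proteins of the ribosome rose slightly or did not pass. Abcf1, which acts in translation initiation, had 7.56, 7.84 and 7.51 FPKM in WT and 8.81, 8.58 and 9.94 in S100a16KO+/- libraries, a log2 fold change of 0.24 (SE 0.06, adjusted p = 0.00945). Abcf3, a protein of the same family linked to antiviral defence, had 5.44, 6.14 and 6.002 FPKM in WT and 7.18, 6.52 and 7.85 in S100a16KO+/- hepatocytes, a log2 fold change of 0.29 (SE 0.07, adjusted p = 0.00791). Neither overlapped between the genotypes. The call of Abcf1 was lost without WT replicate 3 (adjusted p = 0.0595) and without S100a16KO+/- replicate 3 (adjusted p = 0.0570), both from edgeR. Abce1, the ribosome recycling factor, had 6.48 ± 0.343 and 6.57 ± 0.462 FPKM (SD, n = 3 each), which is a log2 fold change of 0.01 (95% interval -0.12 to 0.15). Abcf2 had 0.02 (95% interval -0.15 to 0.20).

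Among the 19 tested members with a mean FPKM under 1, 3 were higher and 1, Slc22a15, was lower, where 9.92% of all tested genes at such a level passed, 6.48% higher and 3.44% lower. Abcc9, the sulfonylurea receptor SUR2 known from vascular smooth muscle and other contractile cells, had 0.377, 0.402 and 0.327 FPKM in WT and 0.658, 0.713 and 0.789 in S100a16KO+/- libraries. Its log2 fold change was 0.95 (SE 0.15, adjusted p = 2.57e-04). Abcg1, a sterol exporter known from macrophages and endothelium, had 0.445, 0.504 and 0.548 FPKM in WT and 0.901, 0.935 and 0.835 in S100a16KO+/- hepatocytes, a log2 fold change of 0.83 (SE 0.14, adjusted p = 4.71e-04). Slco3a1 had 0.159, 0.0850 and 0.127 FPKM in WT and 0.229, 0.195 and 0.288 in S100a16KO+/- hepatocytes, at 56 to 189 counts a library, a log2 fold change of 0.91 (SE 0.27, adjusted p = 0.0263). None of the 3 overlapped between the genotypes, but the call of Slco3a1 was lost without WT replicate 2, WT replicate 3, S100a16KO+/- replicate 1 or S100a16KO+/- replicate 3, with the largest adjusted p, 0.117, without the last of these. Abcc12 was the 1 member that combined a change of at least 2-fold with an unadjusted p under 0.05, a criterion that 4.52% of all tested genes met. It had 11, 4 and 10 counts in WT, at or under the 12 counts that 3 fragments give, and 24, 13 and 39 counts in S100a16KO+/- libraries. Its fitted log2 fold change of 1.57 (95% interval 0.07 to 3.08) rests on these few reads and did not pass adjustment (adjusted p = 0.131, edgeR). Abcg3, with a log2 fold change of -0.61 (adjusted p = 0.139), Abca14, with 1.12 (adjusted p = 0.211), and Slc22a13b, with 0.32 (adjusted p = 0.777), did not pass either.

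Among the markers of other liver cells, the endothelial, stellate and Kupffer lists had more genes higher than lower, the direction of Abcc9, Abcg1 and Slco3a1. The cholangiocyte and lymphocyte lists had 0 higher and 1 lower each, and the erythroid genes were lower. Of all tested genes, 11.6% were higher and 11.2% lower. Of 10 endothelial markers 9 were higher and 1 lower, and their summed FPKM was 53.8 to 58.6 in the WT and 77.7 to 81.1 in S100a16KO+/- libraries. Of 10 stellate cell markers 5 were higher and 0 lower, with sums of 7.89 to 8.21 and 13.9 to 14.1. Of 10 Kupffer cell markers 4 were higher and 0 lower, with sums of 75.9 to 89.7 and 90.7 to 103.6. No marker of these lists was at 0 in all libraries. The sum of 10 hepatocyte markers was far larger, at 50051 to 51072 FPKM in WT and 49459 to 50323 in S100a16KO+/- libraries, with 2 higher and 2 lower. Cholangiocyte markers (4 of 8 tested, 0 higher, 1 lower) added up to 1.73 to 2.40 and 2.05 to 2.57 FPKM, and lymphocyte markers (8 tested, 0 higher, 1 lower) to 1.70 to 1.87 and 2.08 to 2.45. The part of these cells in the result for Abcc9, Abcg1 and Slco3a1 was not tested.

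**Figure D5:**
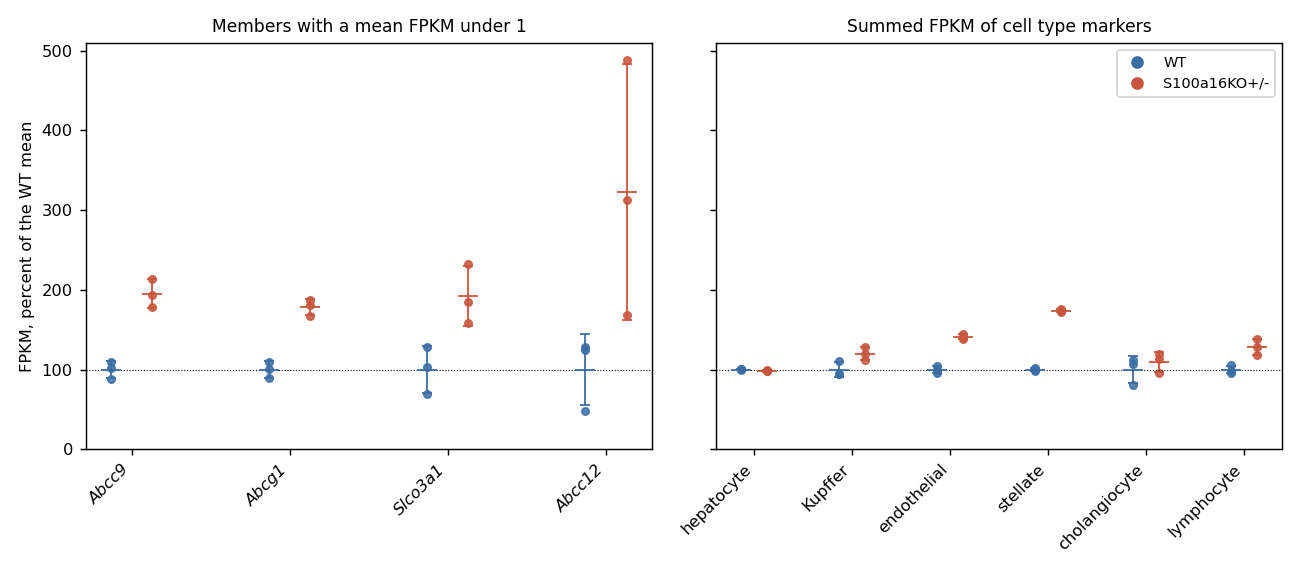
FPKM as percent of the WT mean for 4 members with a mean FPKM under 1 (left) and summed FPKM of 6 marker lists of liver cells as percent of the WT mean sum (right). Points are libraries, horizontal bars are means and vertical bars are SD (n = 3). Abcc9, Abcg1 and Slco3a1 lie above all WT points in S100a16KO+/- libraries. The stellate, endothelial, lymphocyte and, narrowly, Kupffer sums also lie above the WT points. The cholangiocyte sums overlap, and the hepatocyte sum stays near 100 percent.

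The nuclear receptors and factors known to act on transporter genes are given beside the transporters, and most were lower. Of 17 listed regulators, 11 were lower and 1, Stat5b, was higher, with a median log2 fold change of -0.34. Of all tested genes, 11.2% were lower and 11.6% higher. Of those with a mean FPKM of at least 1, as all 17 had, 17.2% were lower and 15.5% higher. Nr0b2, the corepressor SHP, went from 34.4 ± 1.07 to 18.0 ± 0.502 FPKM (SD, n = 3 each), which is a log2 fold change of -0.94 (adjusted p = 9.90e-08). Foxa2 fell by 0.88 (adjusted p = 6.39e-05), the dioxin receptor gene Ahr by 0.75 (adjusted p = 2.08e-06) and Cebpa by 0.70 (adjusted p = 1.13e-07), all on the log2 scale. Nr1h4, the bile acid receptor FXR, fell by 0.62 (adjusted p = 6.65e-07), and Nfe2l2, the stress regulator NRF2, by 0.53 (adjusted p = 1.39e-05). Nr1i2, the drug receptor PXR, fell by 0.34 (adjusted p = 5.99e-04), while Nr1i3, the receptor CAR, did not pass (-0.16, adjusted p = 0.0621), nor did Hnf4a (0.03, adjusted p = 0.746). Among 16 enzymes that these receptors are known to induce, 7 were lower and 1 higher, beside the same backgrounds, with a median of -0.19. Cyp2b10, the classical target of CAR, went from 138.3 ± 0.462 to 44.5 ± 0.291 FPKM (SD, n = 3 each), which is a log2 fold change of -1.64 (adjusted p = 8.22e-11). Cyp2c29 fell by 0.83 (adjusted p = 1.12e-07) and Aldh1a1 by 0.66 (adjusted p = 4.93e-07), whereas the glutathione transferase gene Gsta1 rose by 0.56 (adjusted p = 0.00265), at a level of 6.22 ± 0.870 to 9.24 ± 0.823 FPKM.

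Proteins that hold carriers in the membrane and other organic ion carriers made up a further list of 14, of which 12 were tested. Of these, 2 were higher and 3 lower, beside backgrounds of 11.6% and 11.2%, with a median log2 fold change of -0.05. Pdzk1, the scaffold that binds several SLCO and SLC22 carriers, fell by 0.40 (adjusted p = 0.00156), and Rdx, which links Abcc2 to the actin cortex, by 0.25 (adjusted p = 0.0113), with overlapping FPKM for Rdx. Slc9a3r2, another scaffold, rose by 0.60 (adjusted p = 0.00247) and Msn, an ERM protein abundant outside hepatocytes, by 0.49 (adjusted p = 0.00282). Slc10a1, the bile salt importer NTCP, stood at -0.02 on the log2 scale (adjusted p = 0.876), and Slc47a1, the proton-coupled cation exporter MATE1, -0.09 (adjusted p = 0.238).

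Because several SLCO and SLC22 genes differ by sex and by position in the liver lobule, reference lists for both were read as well. Beside the counts below, 11.6% of all tested genes were higher and 11.2% lower. Of 10 male-biased genes 1 was higher and 2 lower (median log2 fold change -0.07), the lower ones being Cyp4a12b (-0.66) and Cyp4a12a (-0.57). Of 7 tested female-biased genes 4 were higher and 1 lower (median 0.62), among them Cyp2a4, which went from 53.7 ± 2.55 to 89.1 ± 2.72 FPKM (SD, n = 3 each), at 0.73 on the log2 scale (adjusted p = 2.56e-06). Of 10 periportal genes 5 were higher and 1 lower (median 0.16), with Pck1 at 1.36 and Sds at 1.14. Of 10 pericentral genes 3 were higher and 3 lower (median -0.03), with Axin2 at -1.07, Oat at -0.65 and Slc1a2 at 0.46. These are log2 fold changes, and all genes named here with such a value passed at an adjusted p under 0.05. How these lists relate to Slco1a1, Slc22a26 or Slc22a30 was not tested.

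The 14 members that were not tested had too few counts for the fit. In 11 of them no library had more than 12 counts: Abca17, Abcc8, Slc22a13, Slc22a14, Slc22a22, Slc22a8, Slco1a5, Slco1a6, Slco1c1, Slco4a1 and Slco5a1. The largest count of Abca4 was 22, and that of Abcg4 and Slc22a29 was 18. Several of these are known from other organs, such as Slc22a8 (OAT3) from kidney, Slco1c1 from the brain barrier, Abca4 from the retina and Abcc8 (SUR1) from pancreatic beta cells. A count of 0 allows up to 12 counts. The 11 genes with no more than that each had counts above 0 in some library. They lay at or under the limit of detection at this depth and are not shown to be silent.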

How the data were processed

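Hepatocyte RNA of 3 WT and 3 S100a16KO+/- libraries was compared, grouped by the genotype label. Per the labels, libraries were poly(A)-selected, strand-marked by dUTP and carried molecular identifiers. The submitters' processing notes name cutadapt 1.9, HISAT2 2.0.4, UMI-tools, StringTie 1.3.4d, DESeq2, edgeR and mm10, and the strand setting of the counting is not given in the sources used here, so reads of overlapping antisense genes may be shared. The authors deposited 1 table with an estimated count, not scaled for depth, and an FPKM value, scaled by them for transcript length and library size. In the estimated counts 1 fragment is worth about 4 counts, so the limit of detection is 12 counts, for counting error only. The table also holds functional annotation terms, which were not used.

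Estimated counts, rounded to whole numbers, were tested with edgeR 4.0.16 in R 4.3.3 (TMM, filterByExpr, robust quasi-likelihood fit, two-sided, no covariate), with Benjamini-Hochberg adjustment over the 15957 tested genes. The criterion of an unadjusted p under 0.05 with a fold change of at least 2 follows the study's methods, whose tool, DESeq2 (1.42.0 here), was an alternative beside limma 3.58.1. Ratios of chosen pairs of members, of which only some are neighbours on a chromosome, were compared by exact permutation. Most of these pairs set a member that passed the test over one that did not.

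Members and gene lists were chosen with earlier results of these data known. Named with values were the 12 members of highest mean FPKM, members that met the criterion, S100a16, and, up to 12 rises and 12 falls among members that passed the test, were at 1 FPKM or more and did not overlap. Up to 4 genes of each other list with the largest changes past the threshold were named, and other genes where a count is broken down. Nr1h4, Nfe2l2, Nr1i2, Nr1i3, Hnf4a, Ppara, Acsl1, Pex6, Slc10a1 and Slc47a1 were named after their values were seen.

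All 71 members were found in GENCODE M21 on GRCm38, 56 with the same start and end. Of these 71, 22 overlap another gene on the same strand and 23 on the other. Shared 31-base words were counted over GENCODE transcripts, and 13 members shared at least 10% of theirs. RefSeq windows (GRCm38.p6) of 250 bases before the start site matched 53 members by symbol, and bases within the gene were removed from those printed. Some members and listed genes are counted but not reported by name here.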

Additional observations from a re-analysis of the deposited data

How the results depend on the processing

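The counts of 9 higher and 8 lower members, the 1 member past the fold criterion and the fold change of S100a16 were recomputed under 18 listed alternatives and 1 added after seeing the data. S100a16 passed in 17 of 17 alternative fits, between -1.46 and -1.17 on the log2 scale. Limma on log2(FPKM + 1) and on log2(FPKM + 0.1), which tests 38 members, gave 3 higher and 5 lower members in each case, and an adjusted p under 0.01 gave 5 lower. With 1 library left out, the counts ranged from 6 to 9 higher, 5 to 8 lower and 0 to 2 past the fold criterion, with 5 lower without WT replicate 2. The fold criterion was met by 0 members with the replicate block, with a filter of at least 1 CPM in 3 libraries, with DESeq2, with both limma fits on FPKM and with counts divided by 4, by 2 with WT replicate 1 and S100a16KO+/- replicate 2 both left out, and by 9 at a fold change of at least 1.5. The cause was not tested. Same-numbered libraries did not deviate together over all tested genes (correlations of deviations -0.05, -0.02 and 0.05). WT replicate 1 and S100a16KO+/- replicate 2, which stood apart on the second principal component, gave only 0.08, so such correlations cannot exclude a pairing. The fit with the replicate block called 8 higher and 7 lower members, 15 of the same 17 genes, without Abcc10 and Slc22a30. Slc22a26, Abca8a, Abcc4, Slc22a23, Abcd3 and Abcd2 passed in 17 of 17 fits, Abcf3 in 15, Abcf1 in 13, Abcb10 in 12, Slc22a30 in 10 and Abcc10 in 8. Abcc9, Abcg1 and Slc22a15 passed in 15 of 15 fits that tested them, and Slco3a1 in 11. Some members near 0 that never passed changed sign: with 1 library left out, log2 fold changes ranged from -0.0361 to 0.0671 for Slc22a18, -0.0487 to 0.0146 for Abcc3, -0.0380 to 0.0287 for Abca6, -0.118 to 0.0163 for Slco1a4 and -0.0862 to 2.42e-05 for Slco2b1, and with WT replicate 1 and S100a16KO+/- replicate 2 both left out they were -0.0247 for Slc22a18 and 0.0158 for Abca6. Depth limits the members with few counts: 14 of 71 could not be tested, and intervals of Abcc12, Abca14, Abcb1b and Slc22a13b span more than 1 log2 unit.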
